A study of Homo sapiens with 8 samples.

Results

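The HOX genes of the A, B, C and D clusters were followed in A673 Ewing sarcoma cells, 38 genes named by symbol out of 34792 genes with summed reads. A further HOX gene of the clusters was not analysed here. A673 is a cell line that carries the EWSR1-FLI1 fusion, and A673/TR/shFEZF1 cells make the tetracycline repressor and, once doxycycline is given, a small hairpin RNA (shRNA) against the transcription factor FEZF1. The 8 cultures were 1 untreated culture (control) and 1 culture treated with 1 µg/mL doxycycline for 72 h from each of 4 origins, namely the polyclonal population (named bulk in the labels) and clones 3, 5 and 6. Every culture, control or treated, carried the repressor and the shRNA vector and grew with blasticidin, puromycin and zeocin, and the 4 origins stem from 1 cell line and from 1 clone of it that was picked for its repressor. No culture of cells without the FEZF1 shRNA was given doxycycline, so an effect of the drug itself and of the shRNA cannot be told apart. RNA was sequenced from each culture, and 26719886 to 42422421 reads per library were assigned to transcripts.

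HOX genes encode homeodomain transcription factors that give cells their position along the body axis. In each cluster the genes lie in the order in which they are used from head to tail, so that low paralog numbers are anterior and high numbers posterior, and the posterior HOXA and HOXD genes also pattern the limbs. HOX proteins bind DNA together with the TALE homeodomain cofactors of the PBX, MEIS and PKNOX families. Activity of posterior HOXD genes is a known feature of Ewing sarcoma, a tumour of bone and soft tissue.

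The 38 genes lie on chromosome 7 (HOXA, 10 genes, 27100354 to 27200091), chromosome 17 (HOXB, 10 genes, 48528526 to 48728750), chromosome 12 (HOXC, 9 genes, 53938831 to 54056030) and chromosome 2 (HOXD, 9 genes, 176087487 to 176190907) of GRCh38, as annotated by RefSeq (GRCh38.p14). Upstream windows of 250 bases before an annotated start were found in RefSeq for 20 of the 38 members (26 different windows, 16 of them in HOXA, 8 in HOXD and 1 each in HOXB and HOXC, the last shared by HOXC4 and HOXC5). Those of the abundant HOXD11 and HOXD13 and of HOXD8 and HOXD10 are shown. These are 4 of the 5 HOX genes most abundant in the reads matched to genes, and hold the genes called with doxycycline. Capitals mark GGAA or its reverse complement TTCC, the core bound by ETS factors such as the FLI1 part of the fusion, and the PBX-HOX motif TGATTNAT, each searched on both strands.
HOXD11, chr2:176107030-176107279, plus strand: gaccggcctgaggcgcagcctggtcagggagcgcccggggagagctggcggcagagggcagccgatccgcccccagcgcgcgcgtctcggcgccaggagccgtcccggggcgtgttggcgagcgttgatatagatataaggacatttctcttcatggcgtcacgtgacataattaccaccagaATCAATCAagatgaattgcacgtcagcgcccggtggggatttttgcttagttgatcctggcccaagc
HOXD8, chr2:176129455-176129704, plus strand: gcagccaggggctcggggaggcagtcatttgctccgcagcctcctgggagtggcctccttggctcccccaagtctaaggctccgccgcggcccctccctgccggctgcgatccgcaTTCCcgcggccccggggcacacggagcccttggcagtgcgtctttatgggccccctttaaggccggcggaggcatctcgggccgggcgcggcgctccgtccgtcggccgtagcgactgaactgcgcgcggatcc
HOXD10, chr2:176116528-176116777, plus strand: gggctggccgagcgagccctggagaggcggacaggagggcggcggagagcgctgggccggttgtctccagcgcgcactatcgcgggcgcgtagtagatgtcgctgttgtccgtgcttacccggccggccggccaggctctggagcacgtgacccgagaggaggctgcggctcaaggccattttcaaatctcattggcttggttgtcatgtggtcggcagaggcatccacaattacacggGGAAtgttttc
HOXD13, chr2:176092471-176092720, plus strand: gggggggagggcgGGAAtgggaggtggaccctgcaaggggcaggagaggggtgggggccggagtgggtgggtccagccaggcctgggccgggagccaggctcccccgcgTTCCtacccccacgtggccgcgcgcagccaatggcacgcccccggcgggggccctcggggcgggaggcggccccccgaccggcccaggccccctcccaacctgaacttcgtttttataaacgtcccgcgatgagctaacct

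The HOXD11 window held no GGAA and 1 TGATTNAT, those of HOXD8 and HOXD10 held 1 GGAA each, and that of HOXD13 held 2. GGAA was present in 22 of the 26 HOX windows (84.6%) and in 92.7% of all 34943 windows of the same length. TGATTNAT occurred in 2 HOX windows (7.69%, against 2.49% of all), the doubled core GGAAGGAA in 1 (3.85% against 3.06%) and the MEIS motif TGACAG in 2 (7.69% against 13.1%). GGAAGGAA overlaps GGAA by construction. The G and C content of the 26 windows was between 43.2% and 78.0% with a median of 58.8%, near the 58.0% of all windows, while their median of 19.5 CG dinucleotides was above the 11 of all windows. A match describes letters only, and binding was not measured in these data.

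A673 cells used 3 of the 4 HOX clusters. Levels are given in TPM, the deposited measure of transcripts relative to all transcripts of a library and per transcript length, summed over the transcripts of a gene. A gene was taken as on when it reached 1 TPM in every culture. By this rule 23 of the 38 HOX genes were on, 7 of 9 in HOXD, 8 of 9 in HOXC, 8 of 10 in HOXB and 0 of 10 in HOXA. HOX genes summed to between 427 and 602 TPM per culture, of which HOXD held 58.5% ± 2.47 (SD, n = 8), HOXB 20.7% ± 2.10, HOXC 20.5% ± 2.06 and HOXA 0.24% ± 0.11. Genes of paralog groups 9 to 13 (posterior) held 66.2% ± 0.99 of the HOX TPM, groups 4 to 8 (central) 25.5% ± 0.84 and groups 1 to 3 (anterior) 8.31% ± 0.46. These shares cover only transcripts that could be matched to a gene symbol. For the central HOXD4 and the anterior HOXB3 these held 15.5% and 37.9% of the reads that the authors' deposited mean implies.

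**Figure D1:**
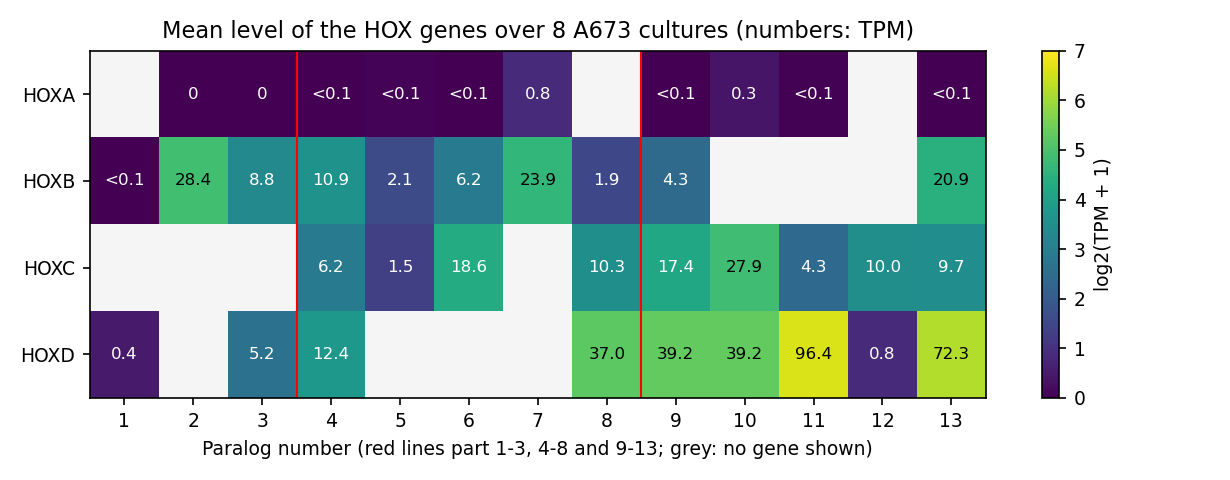
Mean TPM of each HOX gene over the 8 cultures, with clusters as rows and paralog number as columns, coloured by log2(TPM + 1) and with the TPM written in each cell. HOXD8 to HOXD11 and HOXD13 are the brightest block, and the HOXA row stays below 1 TPM throughout.

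Over matched transcripts, the 5 genes with the highest means were all of the HOXD cluster, 4 of them posterior. The rank of HOXD4, most of whose reads were not matched, is uncertain. HOXD11, which patterns the forearm and the posterior spine, was the highest HOX gene in 8 of 8 cultures, and HOXD13, the terminal gene of the cluster that shapes the digits, was the second in 8 of 8. HOXD11 (176107280 to 176115679) was at 116, 101, 109.5 and 95.3 TPM in the control cultures of the polyclonal population and clones 3, 5 and 6, and at 97.6, 85.0, 87.0 and 79.8 TPM in the doxycycline cultures of the same origins. Its mean of 96.4 ± 12.4 TPM (SD, n = 8) was above 88.6% of the genes with a mean of at least 1 TPM. HOXD13 (176087487 to 176095944) was at 78.0, 94.2, 51.1 and 79.9 TPM in the controls and 74.7, 79.7, 49.2 and 71.4 TPM with doxycycline, in the same order of origins. Both clone 5 cultures lay below all other cultures for HOXD13, and the control and doxycycline groups overlapped.

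HOXD9, a gene of limb and lumbosacral patterning, was at 44.5, 43.3, 39.3 and 38.6 TPM in the controls and 35.6, 39.8, 36.4 and 36.0 TPM with doxycycline. HOXD10, which specifies lumbar motor neurons, was at 52.6, 39.8, 45.2 and 35.4 TPM in the controls and 39.0, 42.0, 35.2 and 24.2 TPM with doxycycline. HOXD8, a central gene of the cluster, was at 42.9, 37.5, 36.9 and 48.5 TPM in the controls and 33.5, 30.6, 25.5 and 40.4 TPM with doxycycline. The means of HOXD9, HOXD10 and HOXD8 were 39.2 ± 3.30, 39.2 ± 8.26 and 37.0 ± 7.22 TPM (SD, n = 8), which differed by less than the spread between cultures. HOXD9 was the most even of these, and the clone 6 doxycycline culture was the lowest for HOXD10. HOXD12 lies between HOXD11 and HOXD13 on the chromosome and was at 0.62 to 1.05 TPM, far below both neighbours in each of the 8 cultures. At the anterior end HOXD3 was at 3.77 to 6.53 TPM and HOXD1 at 0.20 to 0.73 TPM. HOXD4, which acts in the hindbrain, was at 14.7, 12.3, 12.7 and 5.28 TPM in the controls and 12.6, 21.2, 13.5 and 6.83 TPM with doxycycline, lowest in both clone 6 cultures. Transcripts matched to HOXD4 held 15.5% of the reads that the authors' deposited mean implies for this gene, so its values cover part of its RNA only.

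In the HOXB cluster 4 genes had a mean of at least 10 TPM. HOXB2, a hindbrain gene, was at 31.5, 30.9, 27.0 and 34.1 TPM in the controls and 24.6, 27.9, 23.6 and 27.9 TPM with doxycycline. HOXB7 was at 30.1, 19.9, 21.1 and 32.4 TPM in the controls and 24.4, 18.2, 18.9 and 26.1 TPM with doxycycline. For both genes clone 6 without doxycycline was the highest culture, and the groups overlapped. HOXB13, known for its role in the prostate, was at 24.3, 19.5, 15.5 and 24.8 TPM in the controls and 25.0, 17.2, 17.1 and 24.0 TPM with doxycycline. HOXB4, which acts in blood stem cells, was at 12.9, 10.3, 12.3 and 9.06 TPM in the controls and 11.8, 9.19, 11.5 and 10.0 TPM with doxycycline. HOXB13 was thus high in the polyclonal population and clone 6 and low in clones 3 and 5, a split that HOXB4 did not show. Of the other HOXB genes, HOXB3 was at 7.01 to 11.3 TPM, HOXB6 at 4.44 to 10.0, HOXB9 at 1.66 to 7.70, HOXB5 at 1.26 to 3.83 and HOXB8 at 0.59 to 3.65 TPM. HOXB1 had 1 read in 1 culture and none in the others. The matched transcripts of HOXB3 held 37.9% of the reads that the authors' mean implies, and those of HOXB8 held 83.6%, again partial values.

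In the HOXC cluster HOXC10, which like HOXD10 acts in lumbar motor neurons, was at 30.0, 25.3, 26.6 and 33.1 TPM in the controls and 33.0, 20.6, 23.0 and 31.2 TPM with doxycycline. HOXC6, a gene of the brachial level, was at 19.4, 21.5, 14.2 and 18.7 TPM in the controls and 17.1, 24.0, 14.8 and 19.4 TPM with doxycycline. HOXC9, which marks thoracic motor neurons, was at 19.7, 17.1, 13.7 and 20.1 TPM in the controls and 15.7, 19.2, 13.3 and 20.2 TPM with doxycycline. Clone 5 was the lowest origin for HOXC6 and HOXC9 both without and with doxycycline. HOXC8, which acts in brachial motor neurons, was at 8.37, 14.2, 8.03 and 8.03 TPM in the controls and 8.30, 16.6, 9.53 and 9.41 TPM with doxycycline, so that both clone 3 cultures stood above the rest. HOXC12 (5.94 to 13 TPM), HOXC13 (6.44 to 12.1), HOXC4 (4.81 to 7.69), HOXC11 (3.17 to 5.52) and HOXC5 (0.97 to 2.26) were lower. HOXC4, HOXC5 and HOXC6 share exons and an annotated start at 54016888, so the division of reads among them is uncertain.

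The HOXA cluster was close to silent. HOXA7 was at 0.44 to 1.54 TPM with at most 45 reads in a culture, and HOXA10 at 0.19 to 0.60 TPM with at most 24 reads. HOXA4, HOXA5, HOXA6, HOXA9, HOXA11 and HOXA13 stayed at or below 0.12 TPM with at most 6 reads. HOXA2 and HOXA3 had no read on a matched transcript in any culture, which at these depths allows up to 3 reads or 0.07 to 0.11 CPM (counts relative to the library size) in each library, counting error only. The authors' mean of normalized counts was 0.16 for HOXA3, so that the 0 holds for its matched transcripts only.

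**Figure D2:**
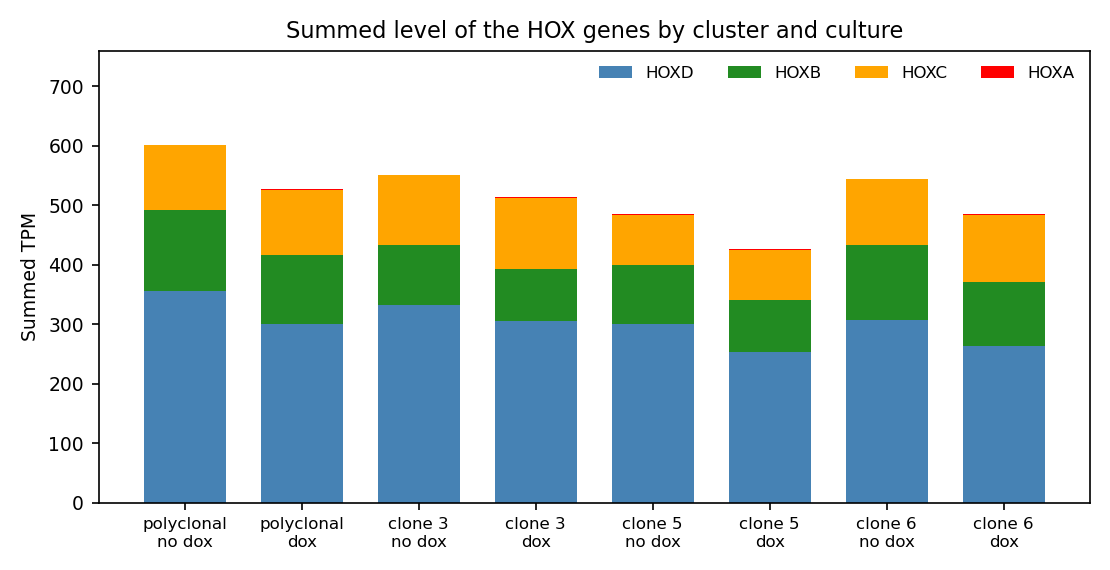
Summed TPM of the HOX genes in each of the 8 cultures, as stacked bars by cluster. HOXD forms the largest part of each bar, HOXA is barely visible, and the total is lower with doxycycline in 4 of 4 origins.

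Of 18 listed noncoding genes within the clusters, 16 were among the summed genes and 8 were on, none of these in HOXA. HOTTIP, HOTAIRM1, HOXA-AS2, HOXA-AS3 and HOXA10-AS of the HOXA cluster had no TPM in any culture, and HOXA11-AS was at most 0.04 TPM. HOXD-AS2 was at 4.68 to 9.35 TPM, HOXC-AS1 at 5.04 to 7.22 and HOXB-AS3 at 1.03 to 9.22 TPM, the 3 highest. HOTAIR, transcribed from the HOXC cluster, was at 4.14, 2.94, 2.28 and 4.48 TPM in the controls and 2.90, 2.08, 1.33 and 3.33 TPM with doxycycline, lower in 4 of 4 pairs but not called (edgeR adjusted p = 0.0717). The libraries were stranded, but whether reads were counted by strand is not given in the sources used here. Reads of antisense genes and of the HOX genes they overlap may therefore not be separated.

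The labels were checked on the shRNA target and on markers. FEZF1 (chromosome 7, 122301303 to 122310723) was at 96.4, 70.5, 107 and 74.4 CPM, scaled by edgeR's TMM method, in the controls and at 60.6, 43.0, 60.8 and 36.4 CPM with doxycycline. It fell in each of the 4 pairs (log2 fold change -0.81, SE 0.07, edgeR quasi-likelihood test paired by origin, Benjamini-Hochberg adjusted p = 0.00594). Of 12 Ewing sarcoma markers 12 were on, led by the surface antigen CD99 (1387 to 3671 TPM), CAV1 (843 to 1167) and CCND1 (838 to 1044). With doxycycline 3 of the 12 were called lower and 3 higher, beside 3.91% and 3.73% of all genes. NR0B1, NKX2-2 and FCGRT rose (log2 fold changes 0.67, 0.30 and 0.38, edgeR adjusted p = 0.00745, 0.0414 and 0.0363), and LIPI, JAKMIP2 (82.4% of its reads matched) and KDSR fell (-0.30, -0.35 and -0.30, edgeR adjusted p = 0.0203, 0.0229 and 0.0244). Of 14 markers of fibroblasts, blood, epithelial and endothelial cells, 5 were on. Their summed level was 246, 585, 164 and 317 TPM in the controls of the polyclonal population and clones 3, 5 and 6 and 313, 667, 256 and 412 TPM with doxycycline. KRT18, an epithelial keratin, had the highest mean (100.1 to 260.3 TPM) and rose with doxycycline (log2 fold change 0.52, SE 0.08, edgeR adjusted p = 0.0161). It was the 1 call among the 11 of these markers tested. The fibroblast collagen COL3A1 followed at 46.3 to 386 TPM, and was above KRT18 in both clone 3 cultures. Of the blood markers PTPRC was at most 0.07 TPM and LYZ at most 0.61 TPM, while CD68 was on at 4.09 to 12.2 TPM. Of the endothelial ones VWF was at most 0.09 TPM and PECAM1 (71.6% of its reads matched) at most 0.29 TPM. CDH5 had no read on a matched transcript but an authors' mean of 2.44 normalized counts. Of the other epithelial markers CDH1 was at most 0.15 TPM, KRT8 at 3.58 to 17.3 and EPCAM at 0.04 to 3.39 TPM. Like KRT18, the fibroblast markers COL3A1 and LUM and also CD68, PECAM1, KRT8 and EPCAM were higher with doxycycline in 4 of 4 pairs. Of all genes 17.3% were. Apart from KRT18 they were not called by edgeR (EPCAM log2 fold change 1.90, edgeR adjusted p = 0.0501). COL3A1 was called by DESeq2 paired by origin (adjusted p = 0.0274). DCN, PDGFRA and CDH1 were lower in 3 of 4 pairs. Since these levels differed between origins and groups, their part in the HOX differences was not tested.

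With doxycycline, 2 HOX genes fell past the threshold and none rose. Both are HOXD genes, HOXD8 and HOXD11, and the falls were modest. In RNA from whole cultures, fewer cells using a gene and less RNA per cell cannot be told apart. Each gene was tested in a fit with origin as a block, which compares the cultures of an origin with each other, and p-values were adjusted over the 15993 genes tested. Of the 38 HOX genes 29 passed the filter on low counts and 9 did not (8 HOXA genes and HOXB1). Calls were 2 of 29 lower and 0 of 29 higher, beside 3.91% of all genes called lower and 3.73% called higher. At an unadjusted p under 0.05, 9 of 29 HOX genes were lower and 3 higher, beside 12.2% and 12.6% of all genes, and DESeq2 with the block called 4 of 25 lower (HOXB9, HOXD8, HOXD10 and HOXD11) and 0 higher, beside 8.31% and 6.59% of all genes. The median log2 fold change was -0.11 over the 29 HOX genes and 0.00 over all genes tested. In 4 of 4 pairs 10 HOX genes were lower and 5 higher, where 15.9% and 17.3% of all genes were.

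HOXD8 was at 44.6 ± 6.09 CPM in the controls and 34.8 ± 7.97 CPM with doxycycline (SD, n = 4 each), a fold of 0.77. Its log2 ratios were -0.37, -0.37, -0.52 and -0.21 in the polyclonal population and clones 3, 5 and 6. The paired estimate was -0.37 (SE 0.07, edgeR adjusted p = 0.0255), while the groups overlapped because clone 6 was high in both. HOXD11 was at 100.1 ± 6.04 CPM in the controls and 82.7 ± 4.12 CPM with doxycycline, a fold of 0.83, with log2 ratios of -0.24, -0.30, -0.35 and -0.20. Its paired estimate was -0.27 (SE 0.05, edgeR adjusted p = 0.0268), and the 4 doxycycline cultures lay below the 4 controls without overlap. Without the block neither gene was called (edgeR adjusted p = 0.718 for HOXD8 and 0.453 for HOXD11), and neither was called when any 1 origin was left out. Over the alternatives tried the adjusted p ranged from 0.000719 to 0.718 for HOXD8 and from 0.000322 to 0.453 for HOXD11, with the estimate negative in 13 of 13 for each.

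No other HOXD gene passed in edgeR with the block, with 6 negative and 3 positive estimates among the 9 tested, HOXD8 and HOXD11 included. HOXD10 was at 43.0 ± 5.79 and 34.7 ± 6.09 CPM (log2 fold change -0.32, SE 0.09, edgeR adjusted p = 0.0829), lower in 3 of 4 pairs, with clone 3 at a log2 ratio of 0.02. It was called by DESeq2 with the block (adjusted p = 0.0237), with genes of at least 1 count in any library kept (edgeR adjusted p = 0.0455) and when clone 3 was left out (edgeR adjusted p = 0.0373). HOXD9 was at 43.5 ± 1.60 and 38.8 ± 2.48 CPM (-0.17, SE 0.07, edgeR adjusted p = 0.179), lower in 4 of 4 pairs. HOXD13 was at 106 ± 24.6 and 95.6 ± 17.9 CPM (-0.14, SE 0.06, edgeR adjusted p = 0.212). It was also lower in 4 of 4 pairs, with log2 ratios of -0.05, -0.30, -0.08 and -0.11. HOXD12, at 1.24 and 1.01 CPM in the means, gave -0.29 (SE 0.22). HOXD4 (0.25, SE 0.17) and HOXD3 (0.03, SE 0.12) gave positive estimates, HOXD4 higher in 3 of 4 pairs and HOXD3 in 1. Groups of cultures that did not overlap in CPM were lower for HOXD9 and HOXD11 and higher for HOXD1, where 2.29% and 2.64% of all genes did so. HOXD1, on the other end of the cluster, went from 0.31 to 0.61 CPM (log2 fold change 0.94, SE 0.30, edgeR adjusted p = 0.0989), higher in 4 of 4 pairs at no more than 20 reads in a culture.

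In the HOXB cluster 9 of 9 tested genes had negative estimates, beside 49.3% of all genes, and 0 were called by edgeR with the block (5 at an unadjusted p under 0.05, beside 12.2% of all genes that were lower), with a median log2 fold change of -0.23. HOXB9 had the largest (-0.66, SE 0.21, edgeR adjusted p = 0.0951), with log2 ratios of 0.05, -0.81, -1.01 and -0.67, so that the ratio was negative in the 3 clones and not in the polyclonal population. DESeq2 with the block called it (adjusted p = 0.0453), as did edgeR without the polyclonal cultures. HOXB8 (-0.49, SE 0.18), HOXB7 (-0.23, SE 0.08), HOXB2 (-0.21, SE 0.07), HOXB6 (-0.23, SE 0.13) and HOXB5 (-0.33, SE 0.19) were lower in 4 of 4 pairs, and HOXB3 (-0.33, SE 0.11) in 3 of 4. HOXB4 and HOXB13 were near 0 (-0.07 and -0.01). How reads divide between the transcripts of a gene is an uncertain estimate. As they were divided for HOXB2, a predicted transcript went from 13.8 ± 3.24 to 9.47 ± 1.45 TPM. The curated HOXB2 transcript was at 17.1 ± 0.59 and 16.5 ± 1.08 TPM (SD, n = 4 each). With curated transcripts only, the log2 fold change of HOXB2 was -0.06 (SE 0.09), which rests on the same division and is no separate test of it. In HOXB3 likewise 1 predicted transcript went from 3.92 ± 0.87 to 0.97 ± 1.13 TPM and another from 5.23 ± 1.56 to 6.55 ± 0.73 TPM.

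Estimates in the HOXC cluster had both signs, and those in the HOXA cluster were positive. Of 9 HOXC genes tested, 4 had negative and 5 positive estimates, from -0.13 (HOXC13) to 0.37 (HOXC5), and 0 were called by edgeR (3.91% of all genes lower and 3.73% higher) or by DESeq2 with the block (8.31% and 6.59%), with 1 higher at an unadjusted p under 0.05 (12.6% of all genes). HOXC4 (0.31, SE 0.14), HOXC5 (0.37, SE 0.20) and HOXC11 (0.28, SE 0.12) were higher in 4 of 4 pairs, where 17.3% of all genes were. HOXC13 was lower in 4 of 4 pairs, where 15.9% of all genes were. HOXC6, HOXC9, HOXC10 and HOXC12 gave log2 fold changes between -0.11 (HOXC10) and 0.02 (HOXC6), and HOXC8 gave 0.17 (SE 0.09), higher in 3 of 4 pairs. HOXA7 went from 0.64 to 1.18 CPM (log2 fold change 0.80, SE 0.27, edgeR adjusted p = 0.117), higher in 4 of 4 pairs, and HOXA10 from 0.31 to 0.49 CPM (0.60, SE 0.36), both at few reads.

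The partners and regulators of the HOX genes were read from lists. Of the 9 TALE cofactors 8 were summed and on, led by PBX2 (58.3 to 70.9 TPM) and MEIS1 (15.1 to 24.0 TPM). MEIS1, which binds with posterior HOX proteins, was at 22.8, 22.0, 20.2 and 24.0 TPM in the controls and 19.6, 19.9, 15.1 and 17.8 TPM with doxycycline, and fell (log2 fold change -0.30, SE 0.07, edgeR adjusted p = 0.0371). MEIS3 fell more, from 16.6, 16.7, 6.50 and 18.7 TPM to 13.3, 9.14, 2.64 and 10.8 TPM (-0.75, SE 0.15, edgeR adjusted p = 0.0281). PBX2 had an estimate of 0.01 (SE 0.05). Calls among the 8 tested cofactors were thus 2 lower and 0 higher, beside 3.91% and 3.73% of all genes, with a median log2 fold change of -0.13. The matched transcripts of MEIS3 held 84.2% of the reads that the authors' mean implies.

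Of 30 regulators of HOX transcription 24 were on and 25 tested, with 2 lower and 1 higher, beside 3.91% and 3.73% of all genes, and a median of 0.04. The trithorax subunit DPY30 (139 to 211 TPM), the polycomb methyltransferase EZH2 (99.2 to 126 TPM) and its partner PHF19 (78.9 to 152 TPM) had the highest means and were not called. GDF11, a ligand that promotes posterior HOX expression in the trunk, was at 41.0, 40.1, 31.0 and 39.2 TPM in the controls and 34.7, 26.9, 25.0 and 29.5 TPM with doxycycline, and fell (log2 fold change -0.42, SE 0.06, edgeR adjusted p = 0.00968). CTCF, whose sites insulate parts of the clusters and whose matched transcripts held 76.0% of its reads, fell (-0.27, SE 0.06, edgeR adjusted p = 0.0384), and the polycomb-associated MTF2 rose (0.28, SE 0.07, edgeR adjusted p = 0.0465). CDX1, CDX2 and CDX4, homeobox genes that activate HOX genes in the embryo, were at most 0.12 TPM, and CYP26A1 was listed at 0.

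Of 20 genes flanking the clusters 14 were on, 17 were tested, 2 were called lower and 3 higher, beside 3.91% and 3.73% of all genes, with a median of 0.02. HNRNPA1 (1404 to 1842 TPM), ATP5MC2 (735 to 931 TPM) and ATP5MC3 (187 to 248 TPM) were the most abundant. CBX5, near HOXC, fell (log2 fold change -0.52, SE 0.07, edgeR adjusted p = 0.0102), and CALCOCO1 near HOXC, CALCOCO2 near HOXB and TAX1BP1 near HOXA rose (0.54, 0.23 and 0.39, edgeR adjusted p = 0.0392, 0.0432 and 0.0223). The value of CALCOCO1 rests on 62.0% of its reads. PRAC1 and PRAC2 are small genes next to HOXB13. PRAC2 fell, from 99.4, 81.1, 68.8 and 170.2 TPM to 85.8, 41.7, 38.2 and 116 TPM (-0.62, SE 0.14, edgeR adjusted p = 0.0392), whereas PRAC1 had an estimate of -0.04 (SE 0.15). Both were highest in clone 6. EVX1, which borders HOXA13, was listed at 0, and EVX2, next to HOXD13, was at most 0.22 TPM. Of the 9 noncoding genes tested 0 were called by edgeR (3.91% of all genes lower and 3.73% higher) or by DESeq2 with the block (8.31% and 6.59%), and 2 were lower at an unadjusted p under 0.05 (12.2% of all genes), with a median of -0.33 and estimates from -0.74 (HOXC13-AS) to 0.42 (HAGLROS).

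Differences between the 4 origins were called for more HOX genes than differences with doxycycline. An F test of origin, from the same fit, called 16 of 29 HOX genes, 6 in HOXB, 6 in HOXC, 4 in HOXD and 0 in HOXA, beside 39.4% of all genes tested. Among the 16 the highest origin mean was 1.46 to 4.33 times the lowest, with a median of 1.67. Clone 5 was the lowest origin for 8 of them and the highest for 0. With 2 cultures per origin, which also differ in treatment, the spread within an origin rests on few values. On simulated data this test of origins made more false calls than its threshold allows.

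Clone 5 was called lower than the mean of the other origins for 7 HOX genes and higher for 0, beside 10.4% and 8.56% of all genes. The 7 were HOXB8, HOXB13, HOXC6, HOXC9, HOXC12, HOXC13 and HOXD13. HOXC12 was at 11.6 CPM in clone 5 and 19.9, 23.7 and 20.6 CPM in the polyclonal population and clones 3 and 6 (log2 difference -0.88, SE 0.10, edgeR adjusted p = 0.00114). HOXD13 was at 71.6 CPM in clone 5 and 100.3, 119 and 111 CPM in the others (-0.62, SE 0.07, edgeR adjusted p = 0.00158). HOXC13, known for its role in hair and nails, was at 9.22 CPM against 13.8, 15.2 and 14.3 CPM (-0.65, SE 0.11). Without clone 5, HOXC6, HOXC9, HOXC12, HOXC13, HOXD3 and HOXD13 were no longer called between origins, and 10 HOX genes were. Calls over all genes also fell, from 6300 of 15993 with every origin to 4080 of 15999 without clone 5, from fewer cultures. Without clone 6, 9 HOX genes were called, beside 2970 of 16436 genes. HOXB7, HOXB13, HOXC9, HOXC10, HOXD3, HOXD4 and HOXD8 were not among the 9. In the origin means, the terminal genes HOXB13, HOXC13 and HOXD13 of 3 clusters were thus all lowest in clone 5, in which HOXD11 (95.1 CPM) was near the other origins. So were HOXB8, HOXC6, HOXC9, HOXC12 and HOXD8, which are not terminal. With doxycycline HOXB13 was at 29.4 CPM in clone 3 and 30.6 CPM in clone 5.

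The polyclonal population was called higher for 4 HOX genes, beside 3.28% of all genes. These were HOXB5, HOXB6, HOXB8 and HOXB9, which apart from HOXB7 are neighbours in the cluster. HOXB5 was not called between origins by the DESeq2 likelihood ratio test (adjusted p = 0.0597). HOXB9 was at 10.7 CPM in the polyclonal population and 3.48, 4.35 and 6.97 CPM in clones 3, 5 and 6 (log2 difference 1.28, SE 0.22, edgeR adjusted p = 0.0249). HOXB8 was at 3.94 CPM against 1.59, 0.91 and 2.72 CPM (1.34, SE 0.19, edgeR adjusted p = 0.018). HOXB6 was at 9.75 CPM against 4.80, 6.08 and 5.40 CPM (0.86, SE 0.15, edgeR adjusted p = 0.0247). HOXB7, between HOXB6 and HOXB8, was highest in clone 6 (22.8 CPM) and second in the polyclonal population (18.9 CPM). The noncoding HOXB-AS3 of the same stretch, at 9 to 79 reads in a culture, differed between origins (F test, edgeR adjusted p = 0.0259). Its mean was highest in the polyclonal population (1.63 CPM, and 1.18 CPM in clone 5). The clone 5 control (1.60 CPM) was above the polyclonal doxycycline culture (1.26 CPM).

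Clone 6 was called higher for 7 HOX genes and lower for 3, beside 16.9% and 15.9% of all genes. HOXB2, HOXB7, HOXB13, HOXC9, HOXC10, HOXD8 and HOXD13 were higher, among them HOXD8 at 49.8 CPM against 38.8, 36.1 and 34.0 CPM (log2 difference 0.47, SE 0.08, edgeR adjusted p = 0.0064). HOXD3, HOXD4 and HOXD10 were lower, with HOXD4 at 3.86 CPM against 7.70, 9.83 and 8.0 CPM (-1.14, SE 0.22, edgeR adjusted p = 0.00884). HOXB2 and HOXD10 did not pass the F test over the 4 origins (edgeR adjusted p = 0.103 and 0.0778). Genes of the HOXD cluster thus differed in both directions in this clone. Its libraries were the shallowest of the 8 (28170989 and 26719886 assigned reads), and the part of depth in these differences was not tested.

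Clone 3 was called higher for HOXC6, HOXC8, HOXC12 and HOXD13 and lower for HOXB7, HOXB9 and HOXC10, 4 and 3 genes beside 10.5% and 8.47% of all genes. HOXC8 stood out, at 20.9 CPM against 10.9, 12.4 and 12.8 CPM (log2 difference 0.80, SE 0.10, edgeR adjusted p = 0.00167), and was not called between the remaining origins when clone 3 was left out. Its neighbours HOXC6 and HOXC9 were at 23.1 and 14.4 CPM in clone 3, the highest and the second highest of the 4 origins. HOXD9, HOXD11 and HOXD12 were not called between origins, with highest to lowest ratios of 1.08, 1.10 and 1.24. Of the HOX genes called with doxycycline, HOXD8 differed between origins and HOXD11 did not pass (edgeR adjusted p = 0.29).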

How the data were processed

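RNA of 8 A673/TR/shFEZF1 cultures was sequenced by the authors (stranded mRNA libraries) and quantified with Salmon on GRCh38 RefSeq transcripts. They deposited estimated counts (expected counts, not whole numbers) and TPM of 158867 transcripts per library, and a table from DESeq2 2.11.40.6 per the labels. From that deposited table only the mean of normalized counts (a signal) was read, to see how complete each gene was, and its fold changes and p-values were not used. Of the transcripts 115325 (72.6%; 99.2% of curated and 50.3% of predicted ones) were matched to symbols, holding 89.9% to 91.1% of the assigned reads of a library, and 0 per-sample columns were left unused. The c5 control file is laid out differently from the others.

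Counts were summed per gene, rounded, filtered with filterByExpr and scaled by TMM. Tests were edgeR 4.0.16 quasi-likelihood tests in R 4.3.3 with origin as a block, with Benjamini-Hochberg adjustment over 15993 genes at 0.05. Cultures of an origin hold the same cells, and their log2 CPM deviations correlated at 0.57 to 0.74, against -0.49 to 0.13 between origins. DESeq2 1.42.0, no block, other filters, scaling, curated transcripts and leaving out an origin were the alternatives. DESeq2 without the block and a robust prior were added after seeing the data. The tests were tested on simulated data. Intervals and the floor of 3 counts cover counting error only. Nothing says that cultures were repeated beyond 1 per origin and treatment.

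The HOX genes and the lists (cofactors, noncoding, flanking, regulators, markers) were chosen with earlier results of these data known. Named with a value in every culture were FEZF1, HOX genes with a mean of at least 10 TPM or called with doxycycline. Of each list the called members and the 3 most abundant were named, some by range or fold change only. Promoter windows are from RefSeq (GRCh38.p14).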

Additional observations from a re-analysis of the deposited data

Results flagged for a closer look

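In 60 groups of 4 cultures (29 HOX genes and FEZF1, control and doxycycline), a culture far from the other 3 was found in 5, where chance gives about 3. In the doxycycline group the polyclonal culture was far above the rest for HOXB5 (2.95 CPM against 1.39 to 1.63) and HOXB6 (9.46 CPM against 4.65 to 5.01), and the polyclonal control culture was at 3.67 and 10.0 CPM. In the control group clone 3 was far above the rest for HOXC4 (7.06 CPM against 4.81 to 5.19) and HOXC8 (19.7 CPM against 10.9 to 11.6), and the clone 3 doxycycline culture was at 7.18 and 22.2 CPM. For HOXC13 the clone 5 doxycycline culture was low (8.80 CPM against 13.6 to 14.1), with 9.65 CPM in the clone 5 control. In 5 of 5 the other culture of the same origin had a similar value.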

How the results depend on the processing

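The 23 genes taken as on became 17 at 5 TPM and 26 at 0.5 TPM. The HOXB share of the HOX TPM was 17.4% with curated transcripts only and 17.8% as CPM per kilobase, since these leave out predicted transcripts, and the other shares moved by less than the spread between cultures. Transcripts not matched to a symbol were left out in every setting, so their part in the shares was not tested.

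With doxycycline 2 HOX genes and 1221 of all genes were called. With no replicate block these were 0 and 1 in edgeR and 0 and 231 in DESeq2, and FEZF1 was at -0.80 (adjusted p = 0.29) in edgeR and -0.81 (adjusted p = 0.0157) in DESeq2. DESeq2 with the block called 4 and 1920, and curated transcripts only gave 493 of all genes. Without 1 origin in turn the counts were 0 to 1 HOX genes and 175 to 699 of all genes, from fewer samples, and the log2 fold changes of HOXB13 (-0.074 to 0.058), HOXC6 (-0.022 to 0.078) and HOXC9 (-0.10 to 0.033) crossed 0. The other scaling, filter and length settings called 2 or 3 HOX genes, HOXD8 and HOXD11 among them.

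Between origins 16 HOX genes and 6300 of all genes were called. Curated transcripts only gave 12 HOX genes, without HOXB5, HOXC9, HOXC10 and HOXD3, and 4054 of all genes. The DESeq2 likelihood ratio test called 16 HOX genes, with HOXD10 and without HOXB5, and 6713 of all genes. Leaving out 1 origin in turn gave 9 to 15 HOX genes and 2970 to 5300 of all genes. The cause of these changes was not tested. HOXA7, HOXA10 and HOXD1 rest on at most 45 reads in a library, which limits what depth can show for them.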
